A study of Homo sapiens with 27 samples.

Results

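Input DNA is the sonicated, formaldehyde-fixed chromatin set aside before a chromatin immunoprecipitation (ChIP), and it was sequenced here for 3 of the 27 libraries of the series. The 3 libraries came from HL-60, a long-established line of human promyelocytic leukaemia cells, given 100 µM DRB, 0.8 µM actinomycin D (ActD) or their vehicle DMSO. All 3 deposited gene tables were used, and 16968 protein-coding genes of the 58233 genes in each table were placed on chromosome arms and kept. The rest of the study consisted of ChIP of H2A.Z, a variant of histone H2A, and of acetylated H2A.Z (acH2A.Z), RNA immunoprecipitation, and sequencing of total and nascent RNA. The ChIP covered DMSO-, DRB- and ActD-treated cells, and cells labelled siMyc (knockdown of the gene MYC) or siNTC (control small interfering RNA). The labels of the inputs name neither a genetic change nor a culture replicate, and how long the cells were treated is not stated in them. Each treatment had 1 input library, so a difference between inputs has no replicate check, compares libraries rather than treatments, and carries no p-value.

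Reads of input DNA fall along the genome roughly in proportion to how many copies of each stretch a cell carries, so a gained arm gives more reads per base and a deleted gene gives none. HL-60 is known for an amplified MYC gene, which encodes a transcription factor that drives growth. DRB inhibits the kinases that release RNA polymerase II into elongation. ActD is a DNA intercalator that prefers GpC steps, where a G is followed by a C, and blocks transcription.

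The measure of copy level was the summed expected count per summed effective length of neighbouring genes, divided by the median of all 40-gene windows of the same library. A level of 1 is therefore the median window and not a number of copies. It is an average over the cells sequenced, so a gain in every cell and a larger gain in some cells cannot be told apart. An arm or 40-gene window was called gained where it stood at least 25% above the median window, and lost at a level of 0.8 or less, in all 3 libraries. Expected counts totalled 455948 in DMSO input, 440923 in DRB input and 469547 in ActD input, and 65.1% to 65.9% of them fell in the genes used. The median gene had 12 to 14 counts, too few to read a single gene closely. The median 40-gene window had 660, 635 and 685 counts, which gives a counting error of 3.82% to 3.97%. Intervals are exact 95% Poisson intervals of counts. They and the limits set by a count of 0 cover counting error only, because PCR reads that carry no molecular identifiers are not separate molecules. In total RNA of untreated HL-60 the promyelocyte granule genes MPO (6762 counts), PRTN3 (3198), CTSG (1282) and AZU1 (841) and the myeloid receptor gene CD33 (288) were present. Of 10 erythroid, lymphoid, epithelial and fibroblast markers, 9 had 0 counts of 12679342 and KRT8 had 11. ELANE, a further granule gene, was at 0 in total RNA and in all 3 inputs.

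Chromosome 18 and the short arm of chromosome 5 stood highest. Of 41 arms, 8 (19.5%) were gained in all 3 inputs. Arm 18p had a level of 2.48 under DMSO (interval 2.39 to 2.58), 2.59 under DRB and 2.51 under ActD. Arm 5p had 2.23, 2.19 and 1.97, and arm 18q 2.10, 2.09 and 1.97. These were the only arms near or above a level of 2, and their lowest value in any library lay above the highest value of every other arm. Arm 2p followed with 1.47, 1.39 and 1.38. Arm 13q had 1.43, 1.41 and 1.354. The remaining gained arms lay between 1.28 and 1.36 in every library and were 14q (1.31, 1.30 and 1.36), 15q (1.31, 1.32 and 1.32) and 17q (1.34, 1.28 and 1.34). Just short of the threshold lay 12p at 1.21, 1.24 and 1.19, 3q at 1.22, 1.22 and 1.14, and 11q at 1.20, 1.19 and 1.19.

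Of the same 41 arms, 4 (9.76%) were lost in all 3 inputs. Both arms of chromosome X were lowest, Xp at 0.402 under DMSO, 0.393 under DRB and 0.388 under ActD, and Xq at 0.433, 0.425 and 0.414. The lost call on X is relative to the median window and does not say how many X chromosomes the donor carried. On chromosome 10 the short arm stood at 0.494, 0.460 and 0.491, with intervals reaching from 0.435 to 0.522 over the 3 libraries. The long arm stood at 0.718, 0.746 and 0.717, above the short arm in every library. Arms 1p (0.818, 0.801 and 0.818) and 9q (0.797, 0.817 and 0.837) lay just inside the uncalled range. The calls of 2p, 5p, 10p, 18p, 18q, Xp and Xq held under all 14 alternative settings, and those of 10q, 13q, 14q, 15q and 17q were lost under at least 1 of them.

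**Figure D1:**
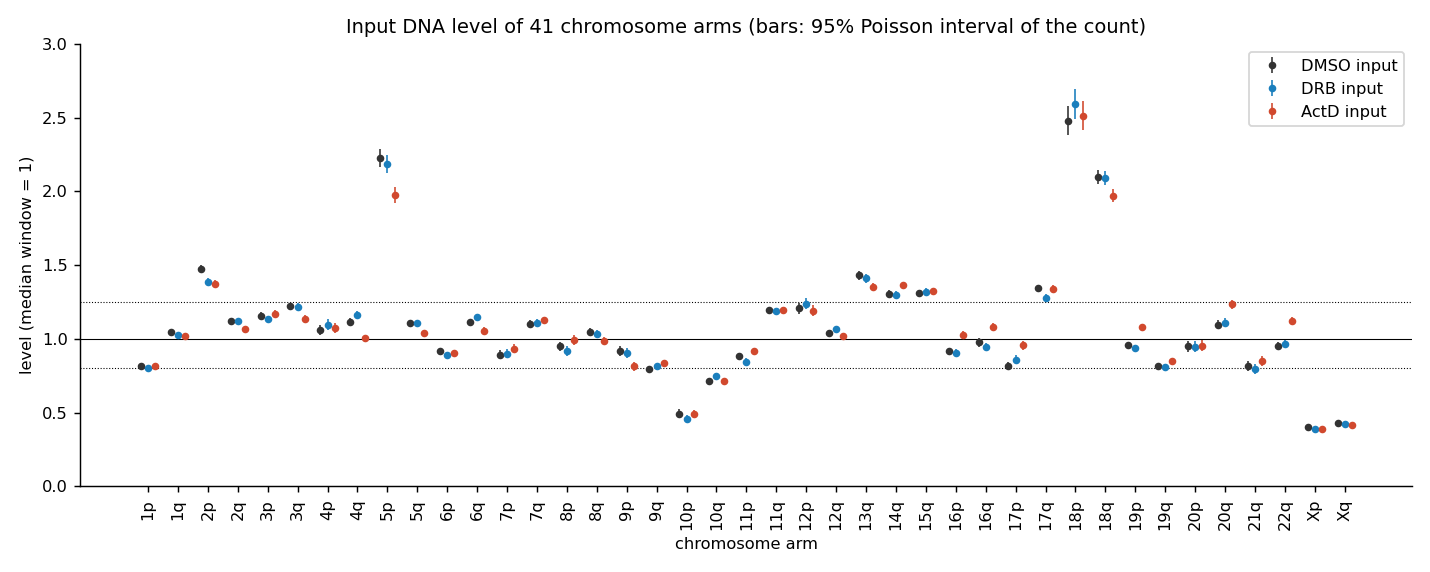
Input DNA level of 41 chromosome arms (x axis) relative to the median 40-gene window (y axis, linear from 0), with 1 point per library and bars for the 95% Poisson interval of the count; dotted lines mark 25% above the median window and a level of 0.8. Arms 5p, 18p and 18q stand near or above 2 in all 3 libraries, 10p, Xp and Xq near or below 0.5, and the 3 points of most arms overlap or lie close together.

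Single genes of these arms moved with their arm, although with a wide spread. Among 12185 genes with an effective length of at least 1000 bases in every library, the median gene stood at 0.845 over the 3 libraries, and 26.4% were at or above 1 in all 3. On 18p the median gene stood at 2.41, the quartiles at 1.40 and 3.75, and 80.9% of 47 genes were at or above 1 in all 3 libraries. On 5p the median gene stood at 1.86 (71.2% of 104 genes at or above 1), and on 18q at 1.84 (64.2% of 159 genes). The medians on the lost arms were 0.409 on 10p, 0.315 on Xp, 0.362 on Xq and 0.590 on 10q. Of the genes of Xp and Xq, 83.5% and 84.2% were below 1 in all 3 libraries, where 40.3% of all genes were. The high level of chromosome 18 and the low level of X were thus spread over most of their genes rather than resting on a few with many counts.

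The known cancer genes of chromosome 18 illustrate the scatter of single genes around the level of their arm. The quartiles of the long genes of 18q were 1.16 and 3.06 over the 3 libraries. SMAD4, which encodes a signal transducer of TGF-beta receptors, had 108 (DMSO), 118 (DRB) and 80 (ActD) counts, a level of 7.00, 6.80 and 7.32. Its counts were lower and its level higher under ActD than under DMSO, since levels also depend on each library's effective lengths. BCL2, an inhibitor of apoptosis, had 126, 117 and 117 counts (3.47, 3.13 and 2.85). TCF4, a helix-loop-helix transcription factor gene, was the highest long gene of 18q, with levels of 10.7, 7.56 and 8.40. In contrast SETBP1, a gene mutated in myeloid malignancies, stood at 0.97, 1.24 and 1.59, and CDH2, a cadherin gene, was the lowest long gene of 18q at 0.404 over the 3 libraries. On 18p the genes SMCHD1 (9.60, 7.07 and 5.07), NDC80 (2.80, 3.06 and 2.26) and TYMS (1.03, 2.16 and 1.54) encode a chromatin protein, a kinetochore protein and thymidylate synthase. TYMS had only 6, 8 and 7 counts. On 5p, SDHA, a subunit of succinate dehydrogenase that has near copies elsewhere, stood at 6.41, 8.46 and 9.85. TERT, the catalytic subunit of telomerase, had 17, 11 and 40 counts and levels of 1.14, 0.754 and 4.61, so that its value differed more between libraries than that of its arm. On chromosome X, the leukaemia genes BCOR, STAG2, KDM6A, PHF6 and ZRSR2 stood at 0.152 to 0.710 over the 3 libraries added together, and only ATRX, a chromatin remodeller, lay above 1 (1.85, 1.51 and 2.40).

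The gains and losses were not limited to whole arms. Of 424 windows of 40 genes, 70 (16.5%) were gained and 68 (16%) were lost in all 3 inputs. Adjacent windows called the same way formed 13 gained stretches, which held 1520 genes (8.96% of those used) over 338 Mb, and 12 lost stretches, which held 1788 genes (10.5%) over 318 Mb. All 3 windows of 5p, both of 18p and all 5 of 18q were gained, and all 3 of 10p, 7 of Xp and 11 of Xq were lost. Within 5p the windows under DMSO ran only from 1.97 to 2.39, and within 10p only from 0.461 to 0.559. Within 18q they ran from 1.52 to 2.44.

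Several arms without a call as a whole held stretches that moved in opposite directions. On 1q, the 11.1 Mb next to the centromere (FAM72C to ZBTB7B, GRCh38 chr1:143955287-155018523, 160 genes) stood at 2.21 in DMSO, 2.25 in DRB and 2.16 in ActD input. The highest gene of that stretch, and of the 12185 genes used with an effective length of at least 1000 bases, was PDE4DIP. This centrosomal protein gene has near copies on the same chromosome, and had 303, 352 and 297 counts and levels of 22.2, 28.5 and 28.8. Genes nearest the median of that stretch, LYSMD1 and C1orf56, stood at 1.84 and 1.79 over the 3 libraries. The next stretch along 1q (PAQR6 to CD48, 80 genes, chr1:156243320-160711822) stood at 0.702, 0.564 and 0.685. The level thus went from above 2 to below 0.8 over 1 intervening window. On 6q a stretch of 26.6 Mb from CASP8AP2 to DSE stood at 1.38, 1.40 and 1.34, and the end of the arm from SHPRH to PDCD2 (24.7 Mb) at 0.691, 0.716 and 0.705.

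Further gained stretches lay inside arms on both sides of the arm threshold. On 2p the 36.3 Mb from HEATR5B to FBXO41 stood at 1.59, 1.6 and 1.47. The end of 13q from FAM124A to CHAMP1 (63.1 Mb), the longest of the gained stretches, stood at 1.55, 1.52 and 1.51. On 14q the last stretch from FOXN3 to C14orf80 (16.3 Mb) stood at 1.54 and 1.53 under DMSO and DRB and at 1.89 under ActD, so that ActD lay above the other 2 intervals. On 17q the 7.72 Mb from WSB1 to LIG3 stood at 1.58, 1.76 and 1.58. That stretch holds NF1, a negative regulator of RAS signalling, with 129, 135 and 90 counts and levels of 4.78, 5.45 and 2.88. On 11q the stretches MRGPRD to TRIM49D2 and RBM7 to BLID stood at 1.41, 1.33 and 1.42 and at 1.5, 1.47 and 1.55. The second holds KMT2A, a histone methyltransferase gene rearranged in leukaemias (7.45, 7.62 and 2.68), and CBL, a ubiquitin ligase gene (0.708, 0.703 and 0.708). On 3q the end of the arm from TTC14 to LMLN stood at 1.48, 1.40 and 1.46. On 5q the stretch PCDHGC3 to NMUR2 stood at 1.44, 1.36 and 1.43 and holds RPS14, a ribosomal protein gene of the region deleted in the 5q syndrome (2.74, 3.65 and 2.40).

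Besides those on 1q and 6q, lost stretches outside X and chromosome 10 lay on 1p, 6p, 9p, 9q and 17p. On 1p the stretches PRAMEF13 to LYPLA2 and DHDDS to ZBTB8A stood at 0.690, 0.740 and 0.716 and at 0.662, 0.671 and 0.738. On 6p the genes CYP21A2 to TREML4, from the class III region of the histocompatibility complex onward, stood at 0.635, 0.592 and 0.688. The 9q stretch from SMC2 to DENND1A stood at 0.690, 0.661 and 0.686. On 10q the end of the arm from INA to FRG2B (30.3 Mb) stood at 0.626, 0.670 and 0.659. The lost stretch of 17p (ELP5 to SHISA6, 4.31 Mb) stood at 0.579, 0.610 and 0.683. Each of these stayed below 0.8 in every library, and none reached the level of X or 10p.

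The 9p stretch (CER1 to ENHO, 19.8 Mb) stood at 0.629, 0.720 and 0.581 and spans the interferon genes and the CDKN2A locus, which encodes inhibitors of cyclin-dependent kinases and is often deleted in leukaemia. CDKN2A had 4 (DMSO), 7 (DRB) and 5 (ActD) counts and was too short to enter the sums. CDKN2B had 12, 14 and 11 counts, and the neighbouring MTAP, an enzyme of methionine salvage, had 30, 36 and 25.4. The levels of CDKN2B were 0.487, 1.54 and 0.979. Reads were therefore present at this locus in every library. KLHL9, close by, had 17 counts in each library (0.464, 0.478 and 0.441). The single-exon interferon genes IFNA1 (0, 1.15 and 0 counts) and IFNB1 (2, 1 and 0 counts) were near 0. No deletion was read from so few counts in single genes.

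**Figure D2:**
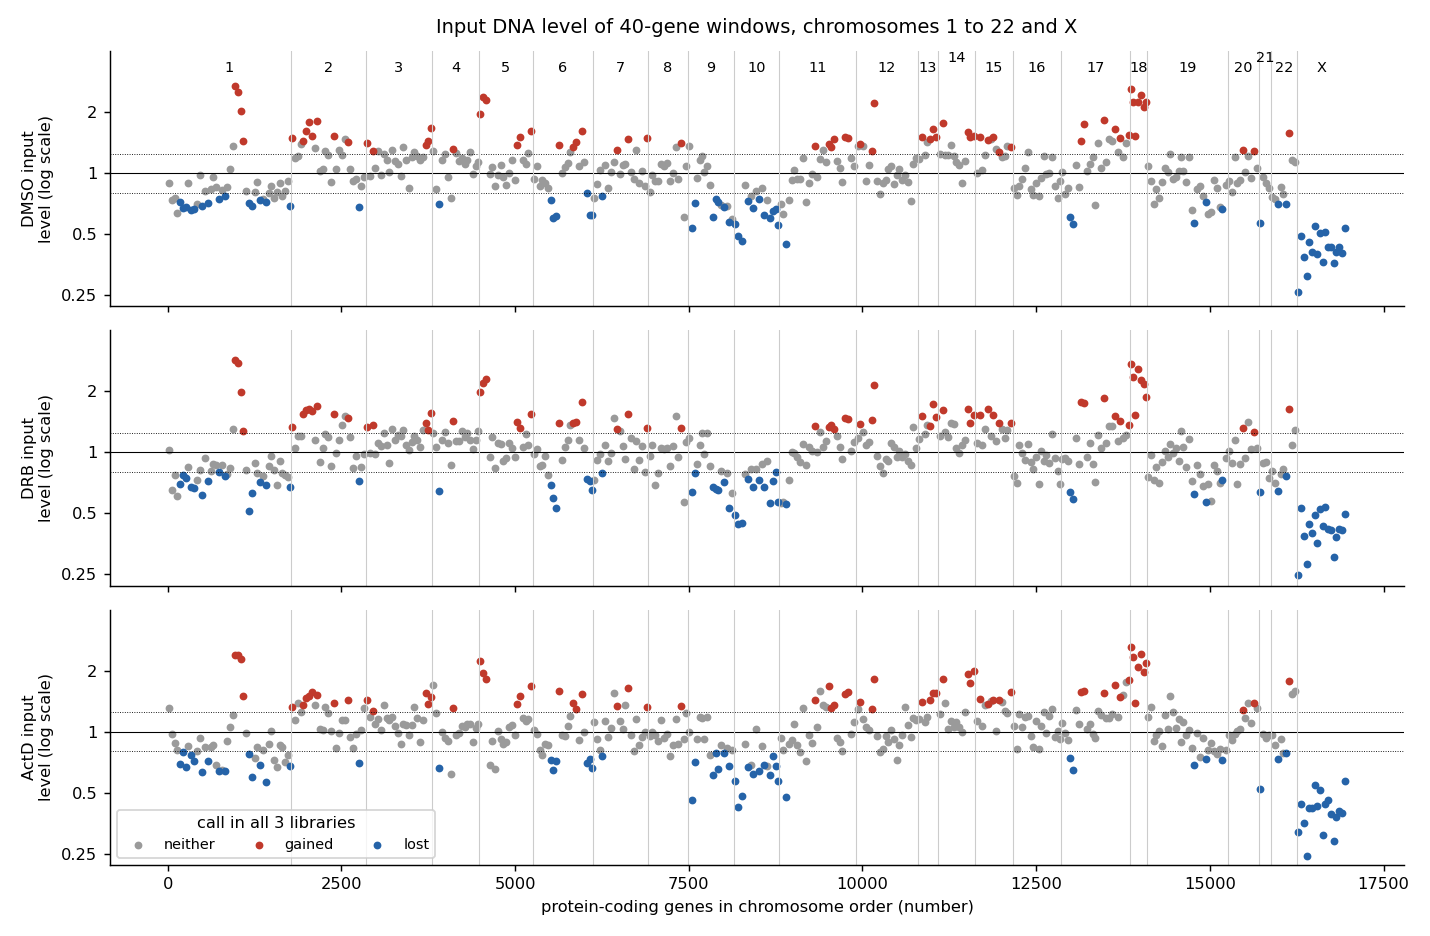
Input DNA level (y axis, log scale) of 424 windows of 40 genes in chromosome order (x axis, number of genes), with 1 panel per library; red points are windows gained and blue points windows lost in all 3 libraries, and grey points have neither call. The start of the long arm of chromosome 1, 5p and chromosome 18 stand above, and the start of chromosome 10 and all of X below, at the same places in the 3 panels.

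On a finer scale, 1715 windows of 10 genes were compared, of which the last in an arm could hold fewer. Of these, 46 (2.68%) were at 2 or more in all 3 libraries, and 28 (1.63%) at 0.4 or less. Chromosome 18 held 14 of the high windows and chromosome X 25 of the low ones. Of the high windows, 34 lay in a gained stretch and 12 outside any. The 2 low windows outside a lost stretch were a group of near-identical USP17L genes on 4p, with 0 counts, and the keratin genes KRT83 to KRT71 on 12q at 0.305, 0.263 and 0.360.

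Outside the gained stretches, the window with the highest level in its lowest library lay on 6q and held MYB, which encodes a transcription factor of blood progenitors. This window ran from SLC18B1 to AHI1 (chr6:132769370-135497740) and stood at 3.50 under DMSO (interval 3.24 to 3.78), 4.01 under DRB and 3.45 under ActD. Its first gene, SLC18B1, had 9, 3 and 3 counts and levels of 0.627, 0.216 and 0.199. The next gene, EYA4, had 86, 65 and 77 counts and levels of 4.34, 5.22 and 3.75. From EYA4 on, all 9 genes had levels of 2.03 to 6.82 over the 3 libraries added together. SGK1, a kinase gene, was highest of them with 126, 142 and 143 counts (5.11, 9.23 and 7.08), followed by HBS1L with 126, 143 and 130 (4.85, 5.61 and 5.30). MYB itself had 34, 45 and 37 counts (3.95, 3.93 and 2.41). EYA4 lay above SLC18B1 in all 3 inputs, and the few counts of SLC18B1 leave the size of that step uncertain.

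A second high window lay near the centromere of 12q, from ANO6 to ENDOU (chr12:45216095-47725490), at 3.87, 4.07 and 2.78. Its first 5 genes carried most of the counts, among them ARID2, a subunit of a SWI/SNF chromatin remodelling complex (5.61, 5.64 and 3.58), SCAF11 (11.6, 11.7 and 7.04) and the amino acid transporter genes SLC38A1 (4.92, 7.52 and 3.61) and SLC38A2 (6.73, 8.62 and 5.04). From SLC38A4 on, the other 5 genes stood at 0.708 to 2.08 over the libraries added together. The 40-gene window holding these genes was the only gained window of 12q, at 2.22 under DMSO. The remaining high windows outside stretches lay on 1p, 1q, 2p, 2q, 7q, 9p, 13q, 14q and 17q. The 9p window held only 2 genes, CNTNAP3B and SPATA31A6. The 1p window held NBPF8 with NBPF26, and the 7q window RASA4 with RASA4B and SPDYE2 with SPDYE2B. These are members of gene families, and their levels are uncertain. The 2q window from CLK1 to STRADB holds CFLAR, CASP10 and CASP8, an inhibitor and 2 initiator caspases of the death receptor pathway, and stood at 2.42, 2.46 and 2.29. The 17q window from HEXIM2 to KANSL1 stood at 2.69, 2.70 and 2.13, with KANSL1 alone at 9.83, 10.1 and 6.72. KANSL1 is partly duplicated in the reference genome, as are SRGAP2 and FAM72A, which carried the 1q window from RAB29 to SRGAP2 (2.12, 2.29 and 2.04).

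On 8q, 2 genes stood far above their neighbours. MYC (chr8:127735434-127742951) had 100 (DMSO), 109 (DRB) and 111 (ActD) counts, and levels of 7.55 (interval 6.14 to 9.18), 8.67 (7.12 to 10.5) and 8.13 (6.69 to 9.79). TRIB1 (chr8:125430358-125438403), which encodes a pseudokinase that promotes breakdown of the myeloid factor C/EBP-alpha, had 165, 148 and 128 counts and levels of 10.4, 7.75 and 6.43. The genes between them were not high. FAM84B had 25, 23 and 25 counts and levels of 1.47, 0.685 and 0.843, and POU5F1B, a near copy of POU5F1 to which reads cannot always be assigned, stood at 0.575 over the 3 libraries. Beyond MYC, GSDMC stood at 0.670, 0.433 and 0.809 and FAM49B at 1.89, 2.76 and 2.10. Before TRIB1, SQLE, an enzyme of cholesterol synthesis, stood at 1.19, 1.53 and 2.04. The non-coding gene PVT1 next to MYC had 9, 9.14 and 9 counts, where a level of 1 would give 3.70, 6.52 and 6.89. NSMCE2, next to TRIB1, had 12, 5 and 14 counts (4.12, 1.71 and 4.02), and both were left out of the sums by type or length. High levels were thus measured at both ends of the 2.31 Mb from TRIB1 to MYC and not at the genes inside it. The 40-gene window that holds both genes was gained at 1.41, 1.32 and 1.34, and without them, a comparison chosen after their values were seen, it stood at 1.08, 1.02 and 1.09.

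**Figure D3:**
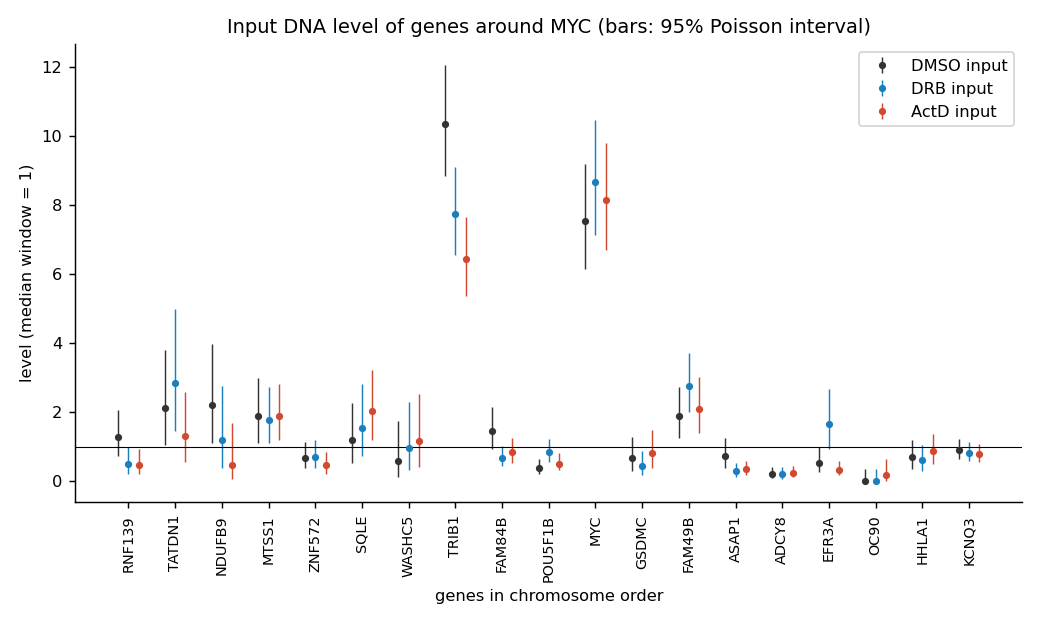
Input DNA level (y axis, linear, median window at 1) of single genes in chromosome order (x axis) around MYC, with 1 point per library and bars for the 95% Poisson interval. TRIB1 and MYC stand at 6.43 to 10.4 in all 3 libraries, and the genes between and beside them lie much lower.

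Genes without reads were rare. Among 10728 autosomal genes whose length would give at least 30 counts at a level of 1, 82 (0.764%) had at most 3, and 41 of these were members of multi-copy families or read-through genes. Some lay in runs of at least 3 adjacent genes with at most 1 count in each library. Of those, USP17L genes on 4p (18 genes, 0 counts of 509 at a level of 1), PRR20A to PRR20E on 13q (5 genes, 0 of 164) and PLA2G10 with NPIPA genes on 16p (3 genes, 1 of 47.0) belong largely to families of near-identical copies, whose levels are uncertain. Other runs hold single-copy genes. LIPK, LIPN and LIPM on 10q (chr10:88706249-88820546), lipase genes of skin, had 1 count of 61.4. BPIFB6, BPIFB3 and BPIFA2 on 20q (chr20:33031648-33181412), from a cluster of secreted lipid-binding proteins, had 2 of 70.5.

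The 3 inputs gave the same picture of the arms. With the treated level divided by the DMSO level, arm ratios ran from 0.935 (10p) to 1.05 (17p) under DRB. Under ActD they ran from 0.883 (9p) to 1.17 (22q). At a ratio at least 25% above 1, or at 0.8 or less, 0 of 41 arms (0%) were called in either direction for either drug. Among the gained and lost arms, the largest departure was that of 5p under ActD, at 0.884 (interval 0.850 to 0.919).

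Differences from DMSO input were measured in single windows. DRB input differed from DMSO input in 12 of 424 windows, 4 higher (0.943%) and 8 lower (1.89%), with ratios from 0.697 to 1.31. ActD input differed in 52, 32 higher (7.55%) and 20 lower (4.72%), with ratios from 0.687 to 1.52. The SD of the log2 ratio over windows was 0.14 for DRB and 0.21 for ActD, and counting error alone would give 0.09 and 0.08. Part of that spread came with the effective lengths, which the deposited tables give per library and which differ between libraries by a median of 1.34 times (largest over smallest). With the mean effective length of the 3 libraries in place of each library's own, an alternative added after the data were seen, the SD fell to 0.09 for DRB, and 1 window was called higher and 1 lower. For ActD the SD was then 0.18, and 27 windows were called higher and 5 lower, of which 22 and 5 were also called with each library's own lengths. With mean lengths, the windows of DRB and DMSO input thus differed by about the counting error, and those of ActD and DMSO input by more than that.

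The ActD ratio of a window rose with the GC content of its promoters. Promoter sequence was at hand for 80.1% of the genes used, and 410 windows with such promoters were compared in 5 groups of 82. Across these windows the log2 ratio of ActD to DMSO had a Pearson correlation of 0.398 with the mean promoter GC content. That of DRB to DMSO had one of -0.097. The points share libraries, and neighbouring windows share base composition. In the group with the lowest GC content the median ActD ratio was 0.917, with 3 windows higher and 8 lower. It was 0.949, 1.01 and 1.03 in the next groups and 1.12 in the group with the highest GC content, where 18 windows were higher and 0 lower. The median DRB ratios in the same groups ran from 0.989 to 1.01. After a correction for promoter GC content, added after the data were seen, 30 windows were called higher and 24 lower in ActD input. With mean effective lengths as well, 23 were higher and 6 lower. Base composition moved with the ActD ratio, and its part in the ratio was not tested beyond this correction.

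As examples of such sequence, a promoter is given from the windows with the highest and the lowest ActD ratio among those with promoter sequence. These are the 250 bases before the start of SH3TC1 (chr4:8199040-8199289, plus strand) and of RAB3C (chr5:58582825-58583074, plus strand), from RefSeq on GRCh38.p14. Mean promoter GC content was 69.9% in the SH3TC1 window and 60.7% in the RAB3C window. These window means also take in the 50 bases after each gene start, which the sequences below leave out. The RAB3C window was thus not in the group of lowest GC content. The capitals mark each GC dinucleotide, which reads the same on both strands and cannot overlap another.
SH3TC1: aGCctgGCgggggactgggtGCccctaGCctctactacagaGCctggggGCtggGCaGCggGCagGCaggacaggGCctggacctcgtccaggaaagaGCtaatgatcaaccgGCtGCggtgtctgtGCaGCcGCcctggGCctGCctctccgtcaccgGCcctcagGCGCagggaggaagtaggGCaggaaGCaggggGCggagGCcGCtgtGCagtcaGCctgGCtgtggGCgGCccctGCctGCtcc
RAB3C: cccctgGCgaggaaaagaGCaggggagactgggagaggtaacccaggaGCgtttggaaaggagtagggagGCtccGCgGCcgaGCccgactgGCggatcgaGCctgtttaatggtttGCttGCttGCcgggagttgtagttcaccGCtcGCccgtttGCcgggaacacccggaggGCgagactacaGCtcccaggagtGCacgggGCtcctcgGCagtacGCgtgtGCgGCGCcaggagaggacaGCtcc
The SH3TC1 promoter is 70.4% G or C and holds 34 GC dinucleotides, as many as or more than which are held by 14.8% of 27305 promoters of that length. The RAB3C promoter is 64.8% G or C and holds 25, which 35.7% of promoters reach. The median promoter holds 20 and 99.96% hold at least 1. SH3TC1 had 24 (DMSO), 26 (DRB) and 35 (ActD) counts, and RAB3C had 34, 27 and 23. With each library's own effective lengths, the levels of SH3TC1 were 3.75, 4.58 and 3.25, so that its counts were higher and its level lower under ActD than under DMSO. Those of RAB3C were 0.989, 0.480 and 0.378. These are single genes with wide counting error, and a GC dinucleotide in a promoter is a description of its letters, not a site of drug binding.

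The 5 highest ActD windows lay towards the ends of chromosomes, a feature seen after their values were known. They were on 1p (OR4F5 to NADK, 1.45), 4p (SH3BP2 to HTRA3, 1.48), 7p (FAM20C to TNRC18, 1.48), 8q (ADGRB1 to OPLAH, 1.52) and 19p (C19orf24 to GNG7, 1.45). The lowest were EMB to HTR1A on 5q (0.687), WASHC1 to ZDHHC21 on 9p (0.723), which also lies at a chromosome end, and PHLDA1 to LUM on 12q (0.730). With mean effective lengths the 12q window was no longer called lower, and the other windows named here kept their calls.

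**Figure D4:**
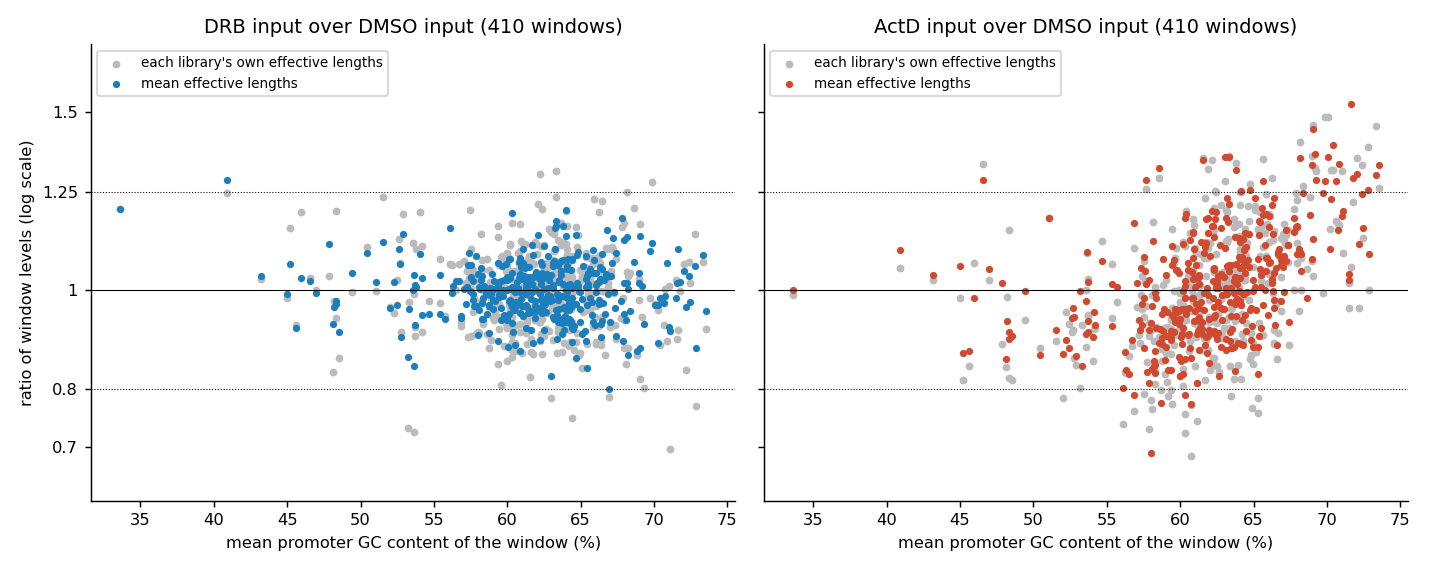
Ratio of the window level in treated input to that in DMSO input (y axis, log scale) against mean promoter GC content in percent (x axis) for 410 windows, DRB left and ActD right; grey points use each library's own effective lengths and coloured points the mean lengths. The DRB points lie flat around 1, and the ActD points rise from a median of 0.917 in the group of lowest GC content to 1.12 in the highest.

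Single genes could be compared where the 2 libraries held at least 30 counts together. At 2-fold, 581 of 7265 genes (8%) were higher and 602 (8.29%) lower in DRB input than in DMSO input. In ActD input 756 of 7718 (9.8%) were higher and 780 (10.1%) lower. When only the counts were compared, 133 were higher and 147 lower in DRB input, of which 101 and 113 were also called with the deposited lengths. In ActD input these were 320 and 232, of which 213 and 175 were called both ways. The largest DRB ratio was that of ZFHX3, a transcription factor gene, at 11.5. Its counts were 47 under DRB and 39 under DMSO, so that its ratio of scaled counts was 1.24. The smallest was that of GOLGA3, a Golgi protein gene, at 0.0700 with 19 against 31 counts. In ActD input ARFGEF2, which encodes an exchange factor for ARF proteins, had the largest ratio among genes with counts in both libraries, 13.3, with 19 against 14 counts. CTAGE6, a member of a family of near-identical genes, had 40.25 counts under ActD and 0 under DMSO, at least 12.7-fold higher by the floor of 3 counts. GRWD1, a histone-binding protein gene of 19q, was the clearest in counts among the 5 largest other than CTAGE6, with 26 under ActD and 6 under DMSO, 4.16 times as many after scaling. No gene's copy number was read from these values.

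Mitochondrial DNA gave fewer counts relative to nuclear DNA in ActD input than in DMSO input. The 13 mitochondrial protein-coding genes, which encode subunits of the respiratory chain and ATP synthase, held 27229 (DMSO), 26420 (DRB) and 23597 (ActD) counts. These were 5.97%, 5.99% and 5.03% of all counts. The level was 475, 477 and 390 times that of the median nuclear window. DRB lay at 1.01 times DMSO (interval 0.989 to 1.02) and ActD at 0.822 times (0.807 to 0.836). All 13 genes were lower in ActD than in DMSO input, with ratios from 0.722 to 0.925, where 6 of 13 were lower under DRB, with ratios from 0.929 to 1.05. MT-CO1, a catalytic subunit of cytochrome oxidase, stood at 547, 535 and 441, and MT-ND5, a subunit of complex I, at 466, 463 and 384. The 13 genes lie on 1 molecule and are not replicates. The median ActD ratio of nuclear windows itself ran from 0.917 to 1.12 between the groups of lowest and highest promoter GC content. Whether base composition had a part in the mitochondrial ratio was not tested.

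RNA of the same line was set beside the copy levels. In total RNA, 64.7% of the 1520 genes in gained stretches had a CPM (counts scaled to a common library total) of at least 1, as had 48.0% of the 1788 genes in lost stretches and 57.9% of all 16968. The median CPM of the genes so detected was 26.6, 13.4 and 19.8. Untreated nascent RNA gave 63.6%, 47.4% and 57.6% detected and median values of 21.5, 11.8 and 15.5 CPM. Across the 41 arms, the log2 level of input DNA had a Pearson correlation of 0.751 with the log2 median CPM of detected genes in total RNA and of 0.733 in nascent RNA. These points share the same libraries and differ in which gene families they hold, and the genes of chromosome X, with large families expressed in testis, are among the lost ones. In bulk RNA, fewer cells with a gene's RNA and less RNA per cell cannot be told apart. RNA of the genes in the small high regions ranged widely. MYC had 2875 counts in total RNA (227 CPM), TRIB1 524 (41.3 CPM) and MYB 4539 (358 CPM), while EYA4, high in DNA beside MYB, had 0.

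The ChIP peak lists were set beside the copy levels. Each of the 10 lists was called separately by the authors, and their headers give the tags of a control in each peak without naming the control library. For acH2A.Z, control tags per kb of peak rose with the input level of the arm in all 5 lists, with Pearson correlations of log2 values from 0.832 to 0.916 over 41 arms. For H2A.Z the correlations ran from -0.577 to 0.395. The share of peaks at the smallest control value that occurs varied between the H2A.Z lists. It was 8.14% under siMyc and 8.33% under siNTC, where the correlations were -0.399 and -0.577. Under DRB it was 73.1%, where the correlation was 0.395. Why the H2A.Z correlations differed from those of acH2A.Z was not tested. The number of peaks per 100 protein-coding genes rose with the input level in all 10 lists, with correlations from 0.540 to 0.832 over the arms with at least 20 peaks, 25 to 41 a list. Per Mb in place of genes, the relation was weak in 4 lists. These were H2A.Z under DMSO (0.073) and acH2A.Z under DMSO (0.127), siNTC (0.130) and DRB (0.174). The other 6 lists had correlations from 0.571 to 0.818 per Mb, so that the relation depended on the scaling for some lists.

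The H2A.Z list of ActD-treated cells was the most uneven. It put 61.7% of its 17669 peaks on the 8 gained arms, which make up 18.8% of the span and 16.8% of the genes, and 0.345% on the 4 lost arms, which make up 9.95% and 8.06%. Per 100 genes this was 382 peaks on gained, 4.46 on lost and 52.7 on the other arms. Arms 5p, 18p and 18q alone held 40.8% of the peaks. In the acH2A.Z list of the same cells the 3 values were 239, 138 and 177, and in the H2A.Z list of DMSO-treated cells, with 1259 peaks, 11.8, 1.76 and 7.04. The part of the DNA copy level in these peak counts was not tested.

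**Figure D5:**
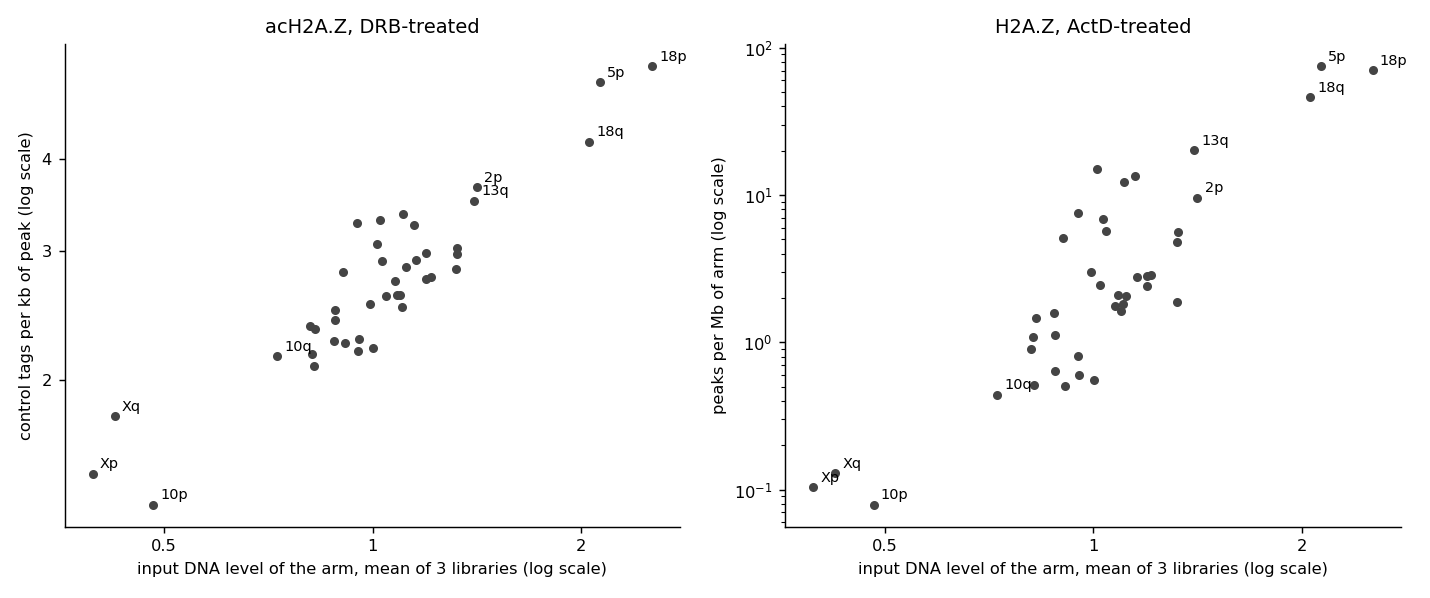
Chromosome arms by their mean input DNA level over 3 libraries (x axis, log scale), against control tags per kb of peak in the acH2A.Z list of DRB-treated cells (left, log scale) and against peaks per Mb in the H2A.Z list of ActD-treated cells (right, log scale). Arms 5p, 18p and 18q lie at the upper right and 10p, Xp and Xq at the lower left of both panels.

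Peaks of these lists were also counted in the high 6q region and between TRIB1 and MYC on 8q. In that 8q span TRIB1 and MYC, at its ends, were high in the input, and the genes measured inside it were not. Between SLC18B1 and AHI1 on 6q (2.73 Mb), the 10 lists held 1034 peaks, and on the rest of 6q 5260. Peaks per Mb were higher there than on the rest of the arm in all 10 lists, by 1.87 to 32.1 times. In the H2A.Z list of DRB-treated cells this region held 112 peaks, with 70.2 kb covered, and the rest of the arm 136. Between TRIB1 and MYC the lists held 586 peaks, 8 to 252 a list. Peaks per Mb were higher there than on the rest of 8q in 8 of 10 lists, by up to 46.4 times. In the acH2A.Z lists of DMSO-treated cells and of siNTC cells they were not, at 0.843 and 0.952 times the rest of the arm. In the H2A.Z list of DRB-treated cells these numbered 252, with 191 kb covered and 1.65 control tags per kb, and the rest of 8q held 224 with 160 kb and 1.76 control tags per kb. In the acH2A.Z list labelled siNTC, control tags per kb were 161 over the 12 kb of peaks between TRIB1 and MYC, and 30.4 over 688 kb of peaks on the rest of 8q.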

How the data were processed

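The 3 input libraries were taken by their titles and treatment labels. Per the file headers, the deposited gene tables hold expected counts, effective lengths, TPM and FPKM per gene. Only the authors' expected counts and effective lengths were used, and counts were rounded for intervals. The submitters' processing notes name Trim Galore, cutadapt, FastQC, STAR 2.5.2b, HOMER and the build GRCh38. The quantifier, its annotation and its use of strand are not given in the sources used here. Effective lengths differ between the libraries (by over 1.5 times for 39.1% of genes), so single-gene levels depend on them. Per the file headers, the deposited peak lists were made with HOMER and give each peak's size and a control tag count, a signal whose scale was not changed here.

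Of 58233 genes, 40483 were placed on chromosomes by identifier with RefSeq GRCh38.p14, and 19108 of these are protein-coding. Genes with an effective length of at least 500 bases in all 3 libraries were kept on chromosomes 1 to 22 and X, in arms of at least 20 genes. Arm boundaries were entered by hand, and 6 of the genes used lie within 1 Mb of one. Promoter GC content of windows came from RefSeq promoter sequences, 250 bases before to 50 after the gene start, with none used for chromosome 8. Levels were computed over 424 windows of 40 and 1715 of 10 neighbouring genes. Ratios to DMSO were scaled by the median window ratio, with exact conditional binomial intervals. A stretch is at least 2 adjacent windows of an arm with the same call. Ratios of genes needed 30 counts, with 0 counts set to a floor of 3. RNA counts were expressed as CPM. There was 1 library a group, so no test was run.

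The members and gene lists were chosen with earlier results of these data known. Named genes were fixed cancer and leukaemia genes, the highest, lowest and 2 median genes of each stretch, the 5 highest and lowest genes, the 5 largest and smallest ratios, and genes of 10-gene windows past a threshold. Any other gene was named after its values were seen. The computation was tested on simulated data. Alternatives covered lengths, thresholds, window sizes, references, gene sets, GC content and left-out libraries. Python 3.11.15, numpy 2.4.6, pandas 2.3.3, scipy 1.17.1 and matplotlib 3.10.9 were used. Results on some loci are not reported here.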

Additional observations from a re-analysis of the deposited data

How the results depend on the processing

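Of the 12 called arms, 7 kept their call under all 14 alternatives. With thresholds of 35% above the median window and 0.7, 5 arms were gained and 37 windows lost. Leaving out each library in turn gave 8 gained and 4 lost arms each time, 77 to 82 gained and 72 to 92 lost windows. With the median gene as reference 115 windows were gained and 40 lost, and with the 3 libraries added together 106 were lost. Windows of 20 genes gave 146 gained and 148 lost, and windows of 80 genes 30 and 38, since their number changes by construction. For the inputs compared, windows of 20 genes gave 39 higher and 45 lower under DRB and 102 and 75 under ActD. All placeable genes gave 11 higher under DRB and 55 under ActD. Without multi-copy families 1 arm was higher under ActD. With mean effective lengths 1 window was higher and 1 lower under DRB and 5 lower under ActD. With the correction for promoter GC content as well these were 1, 0 and 6. A minimum of 10 counts gave 1551 genes higher and 1630 lower under DRB and 1888 and 1746 under ActD, and a minimum of 100 gave 28, 30, 36 and 56. Mean effective lengths gave 133, 147, 320 and 232 genes, and with the GC correction 133, 142, 308 and 233. With the ribosomal RNA genes the mitochondrial level was 483, 486 and 395. The cause of these shifts was not tested, other than where fewer counts or genes are compared. No alternative put the level of a called arm on the other side of 1, and the directions of other values were not compared. Of the counts and mitochondrial levels under an alternative, 114 stayed within a set range of the main value and 41 did not. No paired analysis was possible because each treatment had 1 input library, so the groups share fewer than 2 replicate numbers.

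Depth limits single genes to differences well above the counting error of about 12 counts. Levels are relative to each library's own median window, so a change of all DNA would not be seen. Reads that fit several near-identical genes were divided by the authors' quantification, and only some of these genes are named as uncertain above.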
